A study of Mus musculus with 10 samples.

Results

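The ATP-binding cassette (ABC) transporter family was described in the livers of mice that lost Dicer1, the enzyme that cuts precursor RNAs into mature microRNAs. Members were all genes of the array whose symbol is Abc followed by a subfamily letter from a to g and a digit, 1 gene left out by the rule, and only probe sets annotated to 1 gene were used. This gave 37 genes of the 12366 measured, each read from its brightest probe set, by the average of the 10 arrays. The mutant group was 5 livers of DicerloxP/loxP;Afp-Cre+ mice, in which the alpha-fetoprotein gene's regulatory sequence drives Cre recombinase, and so recombination, from fetal life on. The control group was 5 livers whose genotype is given only as control. All animals were 28 days old, of mixed strain, kept on standard feed and fasted for 5 hours, with 1 array per sample. Values are log2 signal per probe set, and differences are mutant minus control on that scale. They are called at an adjusted p under 0.05 from a limma fit over all 12366 genes.

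ABC proteins bind and hydrolyse ATP at a conserved pair of nucleotide-binding folds, and most use the energy to move a substrate across a membrane. In hepatocytes some sit in the canalicular membrane and export phospholipid, sterols and conjugated anions into bile, while others sit in the sinusoidal membrane and return conjugates to blood. Further members load cholesterol onto lipoproteins, import very long chain acyl-CoA into peroxisomes, or work in mitochondria and lysosomes. Members of subfamilies E and F have no membrane domain and act in translation.

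Arrays correlated between 0.970 and 0.993 with each other, and 0 pairs were identical. Dicer1 was lower in mutants on both of its probe sets, at 5.42 to 5.94 in mutant livers against 7.99 to 8.10 in control livers on the first, and at 6.97 to 7.20 in mutant livers against 7.91 to 8.18 in control livers on the second. The labels do not place these probe sets relative to the deleted exons. The 5 measured hepatocyte markers averaged 15.16 to 15.42 over mutant arrays and 15.18 to 15.54 over control arrays, near the top of the scale. The labels name no sex, litter or batch for either group, so a part of any of these in the results could not be tested, and p-values refer to the scatter among these animals alone.

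Of the 37 ABC genes, 6 rose and 7 fell in mutant livers, and 24 did not pass the test. Those that rose were Abca1, Abca9, Abcb4, Abcc2, Abcc9 and Abcg5, and those that fell were Abca2, Abca6, Abca8b, Abcb6, Abcc3, Abcd4 and Abce1. The called members made up 35.1% of the family, beside 20.1% of all genes, with 16.2% against 8.62% for higher genes and 18.9% against 11.5% for lower genes. Groups did not overlap for 10 members, or 27.0%, beside 13.2% of all genes. Of these, 3 were higher in mutants, or 8.11% of the family beside 6.17% of all genes. The other 7 were lower, or 18.9% beside 6.99%. The median difference was 0.00 in the family and -0.01 over all genes, and the median absolute difference was 0.30 in the family and 0.20 over all genes. The number that rose was 3 without mutant replicate 2, mutant replicate 4, control replicate 2 or control replicate 5, and over all fits without 1 array it ran from 3 to 7. The number that fell ran from 5 to 8 in these fits.

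By subfamily, 2 of 9 measured Abca genes rose and 3 fell, with a median difference of -0.01. Among 6 Abcb genes 1 rose and 1 fell, with a median of 0.00, and among 9 Abcc genes 2 rose and 1 fell, with a median of 0.09. Of 3 Abcd genes 1 fell, the single Abce gene fell, and of 6 Abcg genes 1 rose. Over all genes, 20.1% were called in either direction. None of the 3 Abcf genes passed the limma test, where 1 had an unadjusted p under 0.05. Every subfamily with more than 3 measured genes other than Abcg held genes that moved in opposite directions, and these are given below by the place and substrate of the protein.

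**Figure D1:**
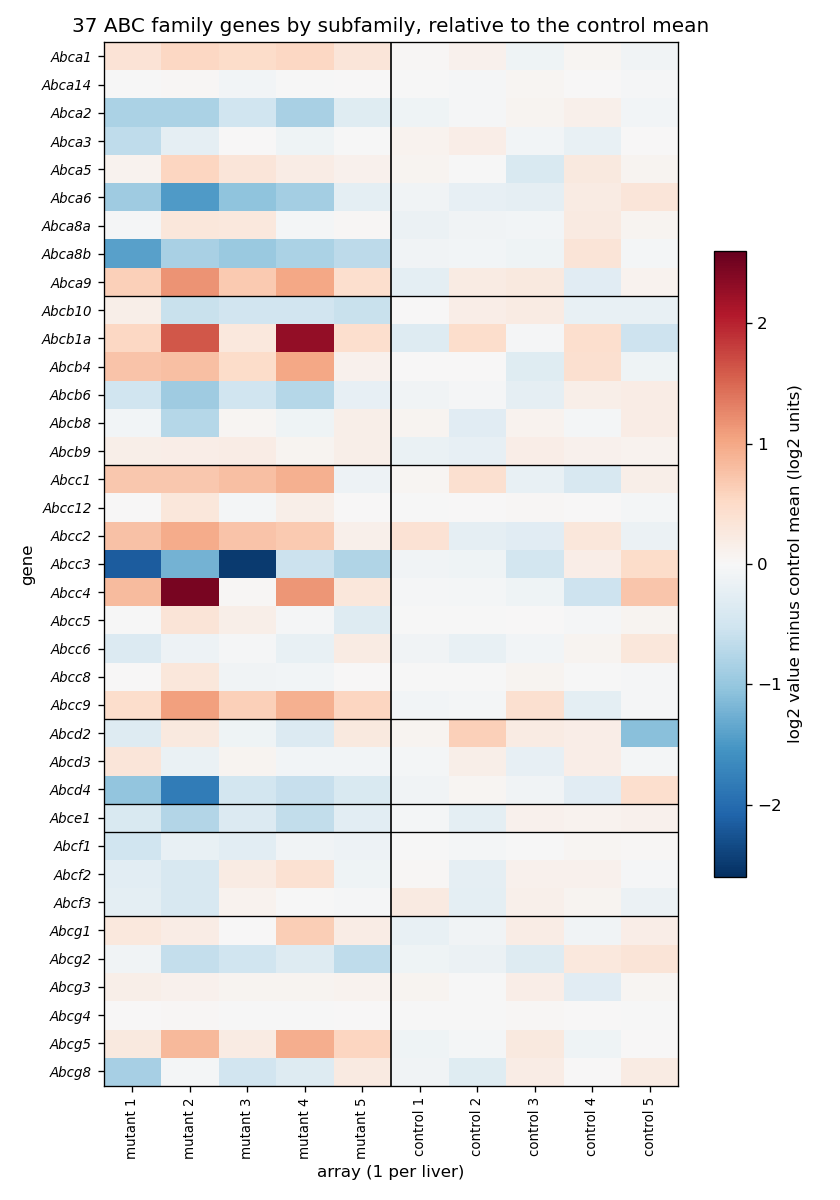
Log2 value of each of the 37 ABC genes (rows, by subfamily) on each array (columns), as the difference from the mean of the 5 control livers, from blue (lower) to red (higher). Abca8b and Abcc3 are blue in all 5 mutant livers and Abca1 and Abca9 red in all 5, and mutant replicate 5 is paler than the others in several rows.

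**Figure D2:**
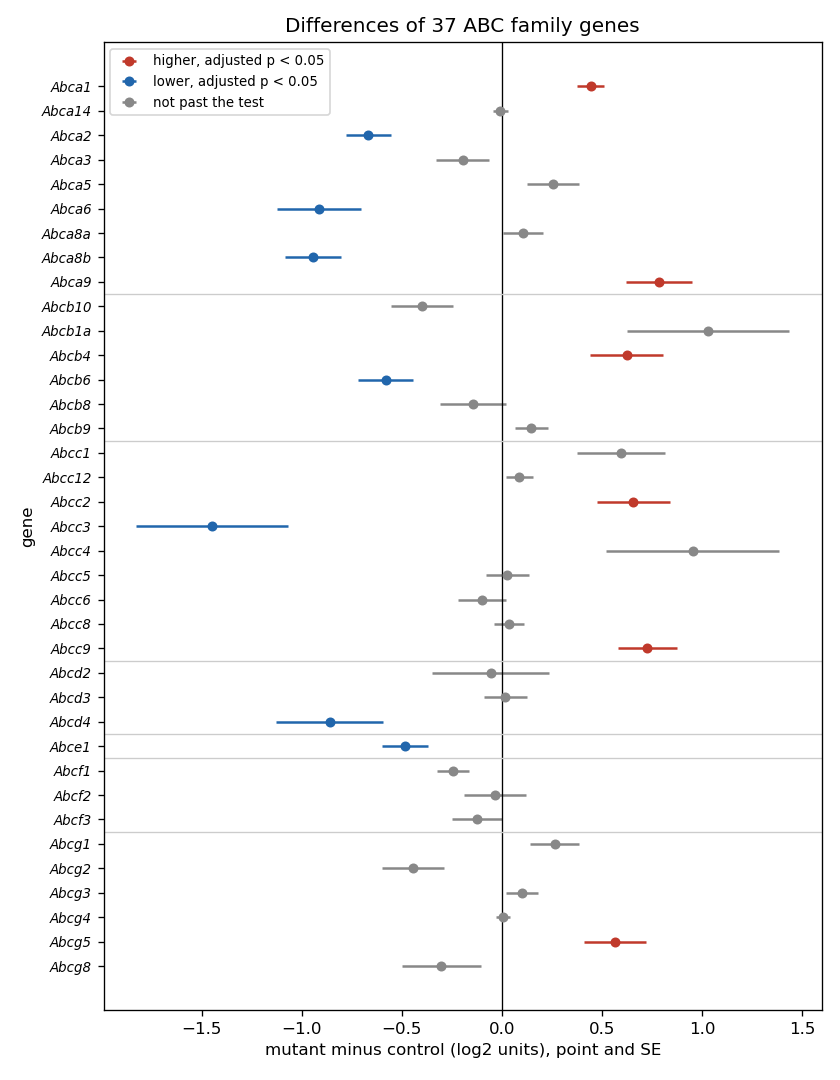
Mutant minus control difference of each ABC gene on the log2 scale, with its moderated standard error, in red where it rose, blue where it fell and grey where it did not pass the test. Called differences run from -1.45 for Abcc3 to 0.78 for Abca9, and the 2 largest uncalled ones, Abcb1a at 1.03 and Abcc4 at 0.95, have the widest error bars.

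Upstream DNA is shown for genes on which the comparisons below turn. The first stretch lies between the start sites of Abcg5 and Abcg8, which face away from each other. The next is the 250 bases before the start of Abcc2, the canalicular exporter of conjugates, which rose. The last pair are the 250 bases before Abca8b and Abca9, which belong to 1 cluster on chromosome 11 and moved in opposite directions. All are RefSeq sequence on GRCm38.p6, written 5′ to 3′ on the strand given, and capitals mark matches to the motifs described after them.
Abcg5-Abcg8, chr17:84683012-84683120, plus strand: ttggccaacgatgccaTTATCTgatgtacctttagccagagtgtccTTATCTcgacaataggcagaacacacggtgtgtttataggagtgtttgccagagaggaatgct
Abcc2, chr19:43782058-43782307, plus strand: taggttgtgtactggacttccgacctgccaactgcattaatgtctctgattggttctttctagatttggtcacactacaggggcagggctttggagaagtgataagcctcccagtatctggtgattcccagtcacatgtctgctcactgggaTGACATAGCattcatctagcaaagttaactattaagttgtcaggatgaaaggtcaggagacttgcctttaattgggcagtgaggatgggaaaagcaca
Abca8b, chr11:109995846-109996095, minus strand: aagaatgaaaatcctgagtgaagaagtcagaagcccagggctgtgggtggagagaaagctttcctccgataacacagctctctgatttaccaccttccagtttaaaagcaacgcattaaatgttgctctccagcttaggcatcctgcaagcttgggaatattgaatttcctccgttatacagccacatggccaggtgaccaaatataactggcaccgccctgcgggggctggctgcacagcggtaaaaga
Abca9, chr11:110168154-110168403, minus strand: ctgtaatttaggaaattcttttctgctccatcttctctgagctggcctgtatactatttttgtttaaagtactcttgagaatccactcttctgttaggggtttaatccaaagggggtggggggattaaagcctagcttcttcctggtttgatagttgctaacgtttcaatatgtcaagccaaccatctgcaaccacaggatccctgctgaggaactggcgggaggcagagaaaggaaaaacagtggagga

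RefSeq windows were at hand for 27 of the 37 members, in 33 windows, and 3 short motifs were searched on both strands in the 250 bases before each start. The core AGATAA, which GATA factors bind, occurs 2 times between Abcg5 and Abcg8, both times as its reverse complement. It was found for 4 of the 27 genes, in 4 of the 33 windows, beside 9.99% of all 32851 windows. The stretch lies in the windows of both Abcg5 and Abcg8, so the same matches count for both genes. This motif was chosen with these letters in view. The core TGACNNNGC of the antioxidant response element, which the stress factor NRF2 binds, occurs once before Abcc2. It was found for 2 of the 27 genes, in 3 of the 33 windows, beside 10.2% of all windows. The core GCGTG of the xenobiotic response element, bound by the aryl hydrocarbon receptor, was found for 10 genes, of which Abcb4 was the 1 called member. These were 10 of the 33 windows, beside 28.2% of all windows. The stretches of Abca8b and Abca9 hold 0 matches to the 3 motifs. In their gapped alignment, 150 of 294 columns held the same base, or 51% with gap columns counted. No level for unrelated windows was computed, so this share does not say whether the stretches are alike. A match is a run of letters and not a measured site.

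Among exporters of the bile canaliculus, called genes were all higher in mutants. Of 6 measured genes of the canalicular and sterol export list, 3 rose (Abcb4, Abcc2 and Abcg5), 0 fell and 3 did not pass the limma test. The share called was 50%, beside 20.1% of all genes, and the median difference was 0.59 against -0.01 over all genes. An unadjusted p under 0.05 was found for 5 of the 6, or 83.3% beside 34.9% of all genes. Of these 5, Abcg2 was lower in mutants and the others were higher. The differences of the list ran from -0.45 for Abcg2 to 1.03 for Abcb1a.

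Abcb4 encodes the flippase that supplies phosphatidylcholine to bile. Its log2 value was 12.50, 12.55, 12.23, 12.77 and 11.87 in mutant livers, against 11.77, 11.77, 11.44, 12.18 and 11.65 in control livers. Mutant replicates 1 to 4 lay above all controls, and mutant replicate 5 lay among them. The difference was 0.62 (SE 0.18, adjusted p = 0.0413). The call was lost without any 1 array other than mutant replicate 5 and control replicate 4, with adjusted p up to 0.0906.

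Abcc2 encodes MRP2, which exports bilirubin glucuronide and other conjugated anions into bile. It stood at 12.16, 12.38, 12.14, 12.09 and 11.55 in mutant livers, against 11.79, 11.17, 11.12, 11.69 and 11.26 in control livers. The pattern over animals was that of Abcb4, with mutant replicates 1 to 4 above all controls and mutant replicate 5 within their range. The mean was 12.06 ± 0.31 in mutant livers and 11.41 ± 0.31 in control livers (SD, n = 5 each), a difference of 0.66 (SE 0.18, adjusted p = 0.0349). Its call was lost without mutant replicate 1, 2, 3 or 4 or control replicate 2, 3 or 5, with adjusted p up to 0.0776.

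Abcg5 and Abcg8 encode the obligate partners of the dimer that exports cholesterol and plant sterols into bile, and the stretch of 109 bases printed above separates their start sites. Abcg5 was 11.73, 12.31, 11.68, 12.42 and 12.03 in mutant livers, against 11.36, 11.42, 11.73, 11.36 and 11.48 in control livers. Mutant replicates 2, 4 and 5 were clearly above all controls, mutant replicate 1 was level with control replicate 3, the highest control, and mutant replicate 3 was below it. It rose by 0.56 (SE 0.15, adjusted p = 0.0325), and the call was lost without mutant replicate 2 or 4 or control replicate 1, 2, 4 or 5, with adjusted p from 0.0603 to 0.0716. Abcg8 was 8.51, 9.31, 8.87, 9.03 and 9.61 in mutant livers, against 9.28, 9.06, 9.56, 9.38 and 9.58 in control livers. Its groups overlapped, with the highest value in mutant replicate 5 and the lowest in mutant replicate 1. The difference was -0.30 (SE 0.20, adjusted p = 0.316). The change of Abcg5 exceeded that of Abcg8 by 0.87 (SE 0.19), and within each array Abcg5 minus Abcg8 ran from 2.42 to 3.39 in mutants and from 1.91 to 2.36 in controls, without overlap. An exact two-sided permutation test over the 252 splits of the 10 arrays gave p = 0.00794, the smallest it allows. The pair Abca8a with Abca8b stood at the same value, so adjustment over pairs could not change it and adds no support. The 2 pairs chosen after their values were seen are described without a test, since that choice would fix such a p. Abcg5 and Abcg8 each rest on 1 probe set.

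Abcb1a and Abcg2 encode exporters of xenobiotics, P-glycoprotein and BCRP. Abcb1a was 5.53, 6.61, 5.27, 7.29 and 5.45 in mutant livers, against 4.67, 5.46, 4.98, 5.44 and 4.47 in control livers. Mutant replicates 2 and 4 stood well above the rest, while the other mutants overlapped the upper controls or lay just above them. The difference was 1.03 (SE 0.41, adjusted p = 0.104), and its other probe set differed by 0.83. Its close copy Abcb1b was not analysed here, and probes may share signal between such copies. Abcg2 was 11.06, 10.52, 10.63, 10.80 and 10.49 in mutant livers, against 11.04, 10.999, 10.80, 11.42 and 11.47 in control livers. The other mutants lay below all controls, replicate 4 only just, while mutant replicate 1 lay among the controls, and the difference was -0.45 (SE 0.16, adjusted p = 0.0714). Without that array it was -0.54 with an adjusted p of 0.0493.

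**Figure D3:**
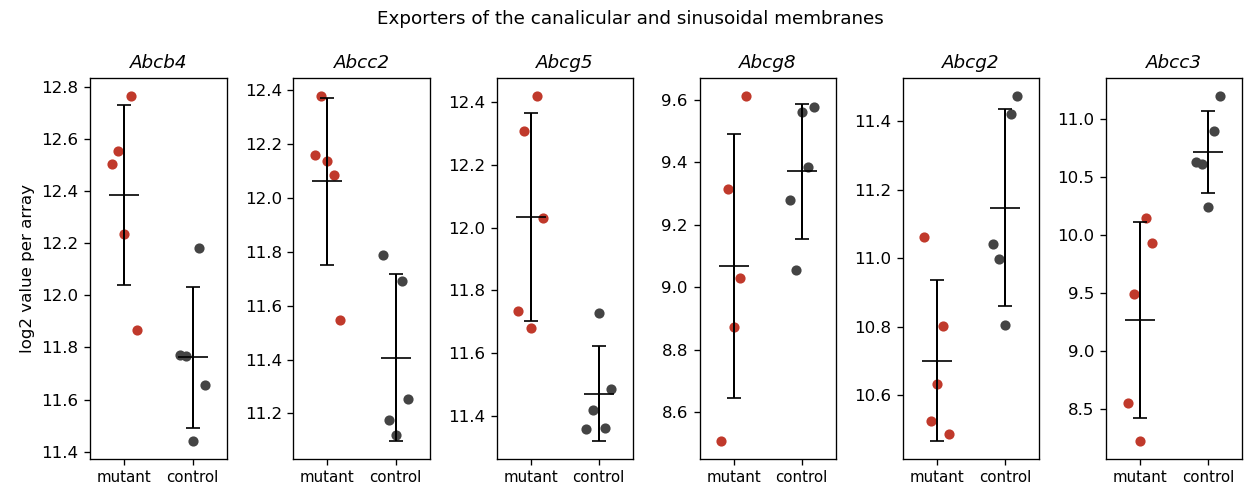
Log2 value per array of 6 exporters, with mutants (red) left of controls (black) and bars for the mean and SD of 5 livers. The scale differs between panels and levels are not comparable across genes, and Abcb4, Abcc2 and Abcg5 sit higher in most mutants while Abcc3 sits lower in all 5.

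Abcc3 had the largest difference of the called members, and it fell. Its product, MRP3, exports glucuronides and bile acids across the sinusoidal membrane into blood. Abcc3 was 8.55, 9.49, 8.22, 10.15 and 9.92 in mutant livers, against 10.63, 10.61, 10.24, 10.89 and 11.20 in control livers. All mutants lay below all controls, and mutant replicates 1 and 3 were the lowest. The mean was 9.27 ± 0.85 in mutant livers and 10.71 ± 0.36 in control livers (SD, n = 5 each), a difference of -1.45 (SE 0.38, adjusted p = 0.0286). The call was lost without mutant replicate 1 or 2 or control replicate 1, 2, 4 or 5, with adjusted p up to 0.0617. Within arrays, Abcc2 minus Abcc3 ran from 1.62 to 3.92 in mutants and from 0.06 to 1.16 in controls, and the changes of these genes differed by 2.11 (SE 0.49). This pair was chosen after its values were seen, so the difference is a description with no test.

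The rest of the conjugate exporters did not pass. Of 6 measured in that list, 1 fell and 0 rose by the limma test, or 16.7% called beside 20.1% of all genes. An unadjusted p under 0.05 was found for 2, or 33.3% beside 34.9% of all genes, and the median difference was 0.06. Abcc4 encodes MRP4, a sinusoidal exporter of cyclic nucleotides and bile acid conjugates. It was 6.96, 8.60, 6.17, 7.29 and 6.44 in mutant livers, against 6.10, 6.09, 6.02, 5.61 and 6.87 in control livers. Mutant replicates 2 and 4 were the highest and control replicate 5 lay above mutant replicates 3 and 5. The difference was 0.95 (SE 0.43, adjusted p = 0.152). Abcc1, the broad glutathione conjugate exporter MRP1, was 4.49, 4.50, 4.57, 4.72 and 3.66 in mutant livers, against 3.86, 4.21, 3.60, 3.37 and 3.94 in control livers. Mutant replicates 1 to 4 were above all controls and mutant replicate 5 was within their range. The difference was 0.59 (SE 0.22, adjusted p = 0.0857), and without mutant replicate 5 it was 0.78 with an adjusted p of 0.00763. That array was the mutant nearest to the control mean, and leaving out any other 1 array did not make Abcc1 pass. Its values at mutant replicate 5 and control replicates 3 and 4 lie near 3.60, the 25th percentile of all values. Abcc6, whose loss causes ectopic calcification and which is made mainly in liver, differed by -0.10 and Abcc5 by 0.03.

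Genes of cell lipid handling moved both ways. Of 10 measured members of this list, which holds most of subfamily A with Abcg1 and Abcg4, 2 rose, 3 fell and 5 did not pass, with a median difference of 0.05. Calls thus made up 50% of the list, beside 20.1% of all genes. Groups were apart for the same 5 of its 10 genes, beside 13.2% of all genes. That separation was read from the arrays that gave the calls, so it adds no separate evidence. These 5 calls (Abca1, Abca2, Abca6, Abca8b and Abca9) were held under all 20 alternative settings.

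Abca1 encodes the transporter that loads cholesterol and phospholipid onto apolipoprotein A-I to form nascent HDL. It was 13.03, 13.21, 13.14, 13.20 and 12.98 in mutant livers, against 12.70, 12.79, 12.56, 12.72 and 12.57 in control livers. All mutants lay above all controls, within narrow groups. It averaged 13.11 ± 0.10 in mutant livers and 12.67 ± 0.10 in control livers (SD, n = 5 each) and rose by 0.44 (SE 0.07, adjusted p = 0.00652). Its other probe sets differed by 0.27 and 0.14 and did not pass. Abcg1, which moves cholesterol to mature HDL, was 7.91, 7.82, 7.65, 8.28 and 7.83 in mutant livers, against 7.44, 7.55, 7.82, 7.55 and 7.81 in control livers. Mutant replicates 2 and 3 lay within the control range, mutant replicate 5 was barely above it and mutant replicate 4 was the highest, and the difference was 0.26 (SE 0.12, adjusted p = 0.165).

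Abca2 encodes an endolysosomal sterol transporter. It was 4.77, 4.77, 5.07, 4.76 and 5.28 in mutant livers, against 5.48, 5.56, 5.68, 5.73 and 5.53 in control livers. All mutants lay below all controls, with mutant replicates 3 and 5 the nearest to them. It fell by 0.67 (SE 0.11, adjusted p = 0.00764). Abca3, which packs surfactant lipid in lung, was 11.25, 11.68, 11.93, 11.81 and 11.91 in mutant livers, against 12.00, 12.10, 11.84, 11.71 and 11.93 in control livers, with groups that overlapped and a difference of -0.20 (SE 0.13, adjusted p = 0.333).

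A cluster on chromosome 11 holds Abca8b, Abca8a, Abca9, Abca6 and Abca5 next to each other in that order in the RefSeq annotation, all A-subfamily genes with roles in lipid transport that are less well defined. Abca8b was 6.71, 7.27, 7.14, 7.29 and 7.44 in mutant livers, against 8.03, 8.04, 8.01, 8.44 and 8.06 in control livers. All mutants lay below all controls by a wide gap, mutant replicate 1 the most. It fell by 0.94 (SE 0.14, adjusted p = 0.00651). Abca8a, its close paralog, was 12.17, 12.49, 12.47, 12.14 and 12.23 in mutant livers, against 12.04, 12.10, 12.13, 12.44 and 12.28 in control livers, with groups that overlapped and a difference of 0.11 (SE 0.10, adjusted p = 0.515). The changes of Abca8a and Abca8b differed by 1.05 (SE 0.14). Within-array differences were 5.13 ± 0.30 in mutants and 4.08 ± 0.09 in controls and did not overlap (SD, n = 5 each). The exact permutation test gave p = 0.00794, again the smallest it allows, so adjustment over pairs could not change it.

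Abca9, the next gene in the cluster, went the other way. It was 7.22, 7.76, 7.27, 7.61 and 7.04 in mutant livers, against 6.33, 6.81, 6.84, 6.31 and 6.68 in control livers. All mutants lay above all controls, and it rose by 0.78 (SE 0.16, adjusted p = 0.0142). Abca6 was 5.56, 5.02, 5.45, 5.62 and 6.24 in mutant livers, against 6.40, 6.28, 6.25, 6.71 and 6.81 in control livers. Mutant replicate 5 was just below the lowest control and the other mutants were clearly below. It fell by 0.91 (SE 0.21, adjusted p = 0.0189). Abca5, at the end of the cluster, was 4.37, 4.83, 4.59, 4.47 and 4.37 in mutant livers, against 4.35, 4.26, 3.88, 4.51 and 4.35 in control livers, with overlapping groups and a difference of 0.26 (SE 0.13, adjusted p = 0.195). Within arrays, Abca9 minus Abca8b ran from -0.40 to 0.51 in mutants and from -2.14 to -1.17 in controls, and the changes differed by 1.73 (SE 0.24), which is also a description of a pair chosen after its values were seen. Each of Abca8b, Abca8a, Abca9 and Abca6 rests on 1 probe set, and the related genes may share some probe signal.

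**Figure D4:**
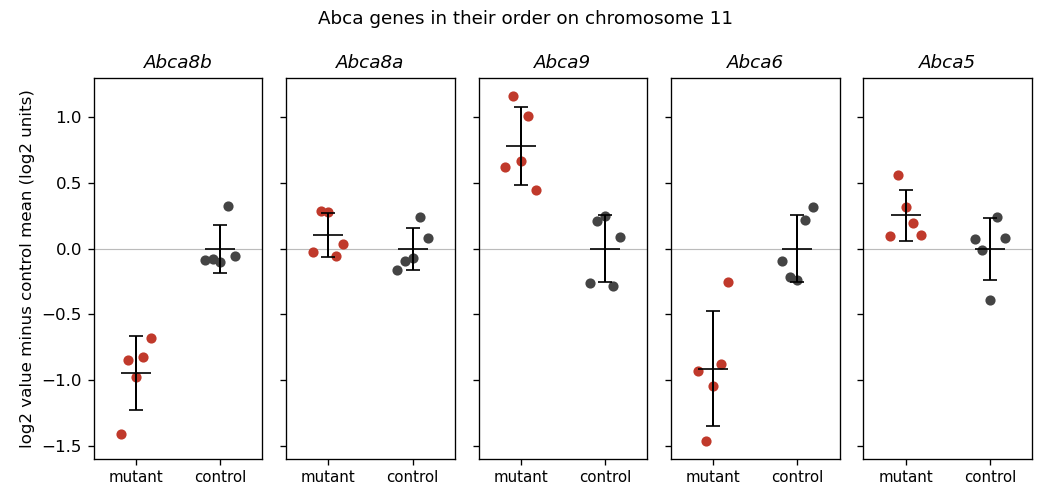
Log2 value of 5 neighbouring Abca genes on each array relative to the control mean, in their order on chromosome 11, with mutants (red) left of controls (black) and bars for the mean and SD of 5 livers. Abca8b and Abca6 sit lower and Abca9 higher in all 5 mutants, and Abca8a and Abca5 overlap between groups.

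In mitochondria, 1 of 3 measured genes fell and 0 rose, or 33.3% called beside 20.1% of all genes, with a median difference of -0.40. An unadjusted p under 0.05 was found for 2, or 66.7% beside 34.9% of all genes. Abcb6, which handles porphyrins, was 10.45, 10.03, 10.45, 10.22 and 10.76 in mutant livers, against 10.88, 10.94, 10.73, 11.12 and 11.15 in control livers. Mutant replicates 1 to 4 lay below all controls and mutant replicate 5 was between the lowest control and the next. It fell by 0.58 (SE 0.14, adjusted p = 0.0203), and the call was lost without mutant replicate 4 (adjusted p = 0.0510). Abcb10, which supports haem synthesis in the inner membrane, was 8.09, 7.34, 7.44, 7.43 and 7.35 in mutant livers, against 7.94, 8.10, 8.13, 7.74 and 7.73 in control livers. Mutant replicates 2 to 5 lay below all controls, while mutant replicate 1 was within their range. The difference was -0.40 (SE 0.15, adjusted p = 0.0988), and -0.41 on its other probe set. Without mutant replicate 1 it was -0.54, with an adjusted p of 0.0204. That array was the mutant nearest to the control mean, and Abcb10 passed under no other of the 20 alternatives, so this is a description. The ferrochelatase gene Fech, which completes haem in the same compartment, fell by 0.29 (SE 0.07, adjusted p = 0.0274), and its other probe sets differed by -0.35 and -0.43. The Fech call was lost without mutant replicate 1, 3 or 4 or control replicate 1, 4 or 5, with adjusted p up to 0.0614. The erythroid enzyme gene Alas2, the 1 measured gene of the erythroid markers, stood at 8.92 to 10.58 in mutants and 9.65 to 10.86 in controls, and its part in these values was not tested.

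Peroxisomal importers showed no call. Abcd3, the abundant peroxisomal membrane protein that also imports bile acid precursors, was 14.13, 13.64, 13.89, 13.75 and 13.75 in mutant livers, against 13.76, 13.97, 13.60, 13.99 and 13.76 in control livers, with groups that overlapped and a difference of 0.02 (SE 0.11, adjusted p = 0.959). Abcd2, an importer of very long chain acyl-CoA, was 8.84, 9.43, 9.05, 8.83 and 9.44 in mutant livers, against 9.25, 9.79, 9.38, 9.35 and 8.09 in control livers. Both ranges overlapped, with control replicate 5 the lowest of all, and the difference was -0.06 (SE 0.29, adjusted p = 0.941). The third Abcd2 probe set differed by -0.54 and the second by -0.07. Abcd4 sits in lysosomes and releases cobalamin (vitamin B12) to the cytosol. It was 5.84, 5.04, 6.36, 6.26 and 6.45 in mutant livers, against 6.76, 6.90, 6.76, 6.55 and 7.28 in control livers. All mutants lay below all controls, mutant replicate 2 by the most. It fell by 0.86 (SE 0.27, adjusted p = 0.0479), and the call was held without mutant replicate 2 or 5 and lost without any other 1 array, with adjusted p up to 0.0996. Lmbrd1, the gene of its partner in that release, fell by 0.26 (SE 0.06, adjusted p = 0.0194) on its strongest probe set, while its other probe sets differed by 0.05 and 0.10. The Lmbrd1 call was lost when arrays were centred on their median (adjusted p = 0.0532) and with the mean of its probe sets (adjusted p = 0.709).

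Of the 4 members without membrane domains, 1 fell and 3 did not pass, or 25% called beside 20.1% of all genes. Abce1 encodes the factor that splits ribosomes for recycling after termination. It was 9.90, 9.52, 9.94, 9.64 and 10.02 in mutant livers, against 10.24, 10.03, 10.40, 10.38 and 10.41 in control livers. All mutants lay below all controls, though mutant replicate 5 and control replicate 2 nearly met. It fell by 0.49 (SE 0.11, adjusted p = 0.0201), with -0.75 and -0.33 on its other probe sets. Abcf1, which binds the initiation factor eIF2, was 9.51, 9.84, 9.75, 9.94 and 9.91 in mutant livers, against 10.02, 9.99, 10.03, 10.08 and 10.06 in control livers. Its groups did not overlap either, but the difference of -0.24 (SE 0.08, adjusted p = 0.0580) did not pass. Without mutant replicate 5 it was -0.27 with an adjusted p of 0.0385, and leaving out any other 1 array did not make it pass. The 5 probe sets of Abcf1 ran from -0.29 to 0.10. Abcf3 was 8.33, 8.17, 8.67, 8.57 and 8.56 in mutant livers, against 8.81, 8.33, 8.72, 8.65 and 8.42 in control livers, a difference of -0.13 (SE 0.12, adjusted p = 0.528), and its other probe sets differed by 0.13 and 0.04. Over Abce1 and the 3 Abcf genes the median difference was -0.18.

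Abcc9 encodes SUR2, the sulfonylurea receptor subunit that gates ATP-sensitive potassium channels, and it is known from smooth muscle and pericytes. It was 9.91, 10.50, 10.08, 10.36 and 10.01 in mutant livers, against 9.38, 9.39, 9.85, 9.20 and 9.41 in control livers. All mutants lay above all controls, with control replicate 3 close to the lowest mutant. It averaged 10.17 ± 0.25 in mutant livers and 9.45 ± 0.24 in control livers (SD, n = 5 each) and rose by 0.73 (SE 0.15, adjusted p = 0.0128). Its other probe sets differed by 0.44 and 0.38, and with the mean of its 3 probe sets the difference was 0.51 with an adjusted p of 0.0620. Kcnj8, the gene of the channel pore that SUR2 gates, rose by 0.53 (SE 0.15, adjusted p = 0.0370), at 6.22 to 6.87 in mutants and 5.60 to 6.27 in controls, and only mutant replicate 3 lay below the highest control. The Kcnj8 call was lost without mutant replicate 1, 2 or 4 or control replicate 1, 2, 4 or 5, with adjusted p up to 0.0855. Abcc8, the sulfonylurea receptor of pancreatic beta cells, differed by 0.03 at values below the 25th percentile.

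Markers of some other liver cells moved with the groups. Of 7 measured stellate cell and pericyte markers 4 rose and 0 fell, or 57.1% called beside 20.1% of all genes. The list averaged 9.52 to 9.88 over mutant arrays against 9.02 to 9.36 over control arrays. Of 9 Kupffer cell and macrophage markers 6 rose and 0 fell, or 66.7% beside the same 20.1%. List means were 9.42 to 9.98 in mutants and 8.41 to 9.49 in controls, with overlap. Of 8 sinusoidal endothelial markers only Lyve1 was called, or 12.5% beside 20.1% of all genes. Lyve1 fell by 0.95 (SE 0.21, adjusted p = 0.0175) and 0 rose, with list means of 8.51 to 8.85 in mutants and 8.80 to 9.22 in controls. Of 6 cholangiocyte markers 0 passed the limma test and 1 had an unadjusted p under 0.05, or 16.7% beside 34.9% of all genes. Of these 6, 3 averaged below the 25th percentile, and list means were 3.94 to 4.55 in mutants and 3.72 to 3.97 in controls. The 2 measured lymphocyte markers did not pass the limma test and averaged 3.20 to 3.95 in mutants and 3.42 to 3.67 in controls. The part of these cells in the ABC differences, including those of Abcc9 and in Abca1, which macrophages also express, was not tested. In whole liver, a change in the number of cells of a type and a change in RNA per cell cannot be told apart.

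The other 10 members had differences between -0.14 and 0.15, and 0 had an unadjusted p under 0.05, beside 34.9% of all genes. Called members and the uncalled ones with the smallest p in each subfamily were taken out first, so this 0 follows largely from that choice. The 10 were Abca14, Abcb8, Abcb9, Abcc5, Abcc6, Abcc8, Abcc12, Abcf2, Abcg3 and Abcg4. Of the 37 genes, 4 (Abca14, Abcc8, Abcc12 and Abcg4) averaged below 3.60, the 25th percentile of all values. No gene was left out for a low value, and these 4 are given as measured near the bottom of the scale. Among ABC proteins that carry other symbols, the chloride channel gene Cftr differed by -0.09, and the peptide transporter genes Tap1 and Tap2 differed by 0.52 and 0.48. None passed the limma test and 0 had an unadjusted p under 0.05, with adjusted p of 0.484, 0.201 and 0.249.

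Regulators and partners of the transporters were read from the array as well. Of 14 measured transcriptional regulators 2 rose and 0 fell by the limma test, or 14.3% beside 20.1% of all genes. An unadjusted p under 0.05 was found for 4 of them, or 28.6% beside 34.9% of all genes. Nfe2l2, the gene of NRF2, was 11.60, 11.39, 11.40, 11.41 and 11.10 in mutant livers, against 10.59, 10.91, 10.97, 11.05 and 10.66 in control livers. It rose by 0.55 (SE 0.11, adjusted p = 0.0142) on its stronger probe set, and its other probe set, at a mean of 5.92, differed by -1.58 and did not pass. Ahr, the gene of the aryl hydrocarbon receptor, was 11.34, 11.54, 11.61, 11.74 and 11.35 in mutant livers, against 11.30, 11.01, 10.91, 10.58 and 10.76 in control livers. It rose by 0.60 (SE 0.14, adjusted p = 0.0179), with groups that did not overlap, and its other probe set, below the 25th percentile, differed by 0.01. The sterol sensor Nr1h3 (LXR alpha), which activates Abca1, Abcg1, Abcg5 and Abcg8, differed by -0.17 (SE 0.12, adjusted p = 0.368). It did not pass and was chosen for its role with its value already seen.

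Of 24 measured partner genes, 3 rose, 2 fell and 19 did not pass, so that 20.8% were called, close to the 20.1% of all genes. Pdzk1, a scaffold that holds MRP2 and other apical transporters, was 10.35, 10.37, 10.45, 10.22 and 9.85 in mutant livers, against 9.50, 9.88, 9.77, 9.59 and 9.45 in control livers. Mutant replicate 5 lay below the highest control and the other mutants lay above all of them, and it rose by 0.61 (SE 0.13, adjusted p = 0.0135). Kcnj8, Fech and Lmbrd1 are given above beside their ABC partners. The fifth called gene, Pltp, which moves phospholipid between lipoproteins, was named with its value already seen and passed only narrowly, with a difference of 0.46 (SE 0.14, adjusted p = 0.0496) and groups that overlapped. Its adjusted p was 0.0642 over all probe sets, its other probe set differed by 0.33, and the call was lost without any 1 array other than mutant replicates 3 and 5 (adjusted p up to 0.108).

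Mutant replicate 5 stood closest to the controls for most of the called genes. Of the 13 called members, it was the mutant nearest to the control mean for 10, and it lay within the control range for 3 (Abcb4, Abcb6 and Abcc2). Set against the average shift of mutant replicates 1 to 4, its own shift was a median share of 0.490 over these genes, from 0.141 for Abcb4 to 0.992 for Abcg5. Without it 15 members were called, the same 13 with Abcc1 and Abcf1, beside 28.6% of all genes in that fit. Since the genes were called with this array included, the shares are a description.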

How the data were processed

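Total RNA of 10 livers, 5 mutant and 5 control, was amplified and biotinylated for mouse expression arrays, per the labels' protocols. The deposited table holds values taken as log2 because they span 0.27 to 16.7, and the base itself is not stated. For background correction, probe summary and normalization, the steps of the authors were not given in the sources used here. Array medians lay between 6.40 and 6.67. Precision is limited by 5 arrays a group.

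Of 25995 probe sets, 37 controls were left out, 21613 had 1 symbol, 638 several and 3707 none in the platform annotation, and 61 of the first had no gene identifier match on GRCm38.p6. The probe set with the highest mean stood for each of 12366 genes. Two-sided tests used limma 3.58.1 (lmFit, then eBayes) under R 4.3.3, with Benjamini-Hochberg adjustment over all genes, without a filter or block, and the model was tested on simulated data. Single pairs of genes were compared by exact permutation of arrays. The Abcc2 with Abcc3 and Abca9 with Abca8b pairs were added after their values were seen and are described without a test.

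Members and gene lists were chosen with earlier results of these data known. The text names every called member, up to 2 uncalled members of each subfamily with the smallest p, near copies and the Abcg5 and Abcg8 pair, and up to 4 called genes of each regulator or partner list. Pltp, a called partner beyond these, and Nr1h3, which was not called, were named outside this rule. The 20 alternatives were 3 array scalings, a filter on dim genes, 2 other probe set rules, adjustment over all probe sets, eBayes with trend and robust options, array weights, a replicate block and each array left out. Pairs were repeated under 13 of these, chosen after seeing the data. No value columns were left unused.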

Additional observations from a re-analysis of the deposited data

Results flagged for a closer look

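Among the 74 groups of 5 arrays (37 members in each genotype), 5 held an array far from the other 4, where chance gives about 1 in 20 groups, so the number is near what chance gives. The values were 8.09 for Abcb10 on mutant replicate 1, against 7.34 to 7.44 on the other mutants, 6.70 for Abcb8 on mutant replicate 2, against 7.33 to 7.58, and 3.66 for Abcc1 on mutant replicate 5, against 4.49 to 4.72. For Abcc8, mutant replicate 2 stood at 3.29, against 2.91 to 3.01 on the other mutants, all below the 25th percentile of all values. Among controls, Abca8b stood at 8.44 on control replicate 4, against 8.01 to 8.06. This last array moved away from the mutants, and leaving it out kept the Abca8b call.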

How the results depend on the processing

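No direction of a called ABC member changed under the 20 alternatives. The 13 calls were the same 13 after quantile scaling, after centring arrays on their median or 75th percentile, with dim genes filtered out and with the trend and robust options of eBayes. With the mean of all probe sets, or the probe set with the highest SD, 11 were held and Abcc9 and Abcd4 were lost, and with adjustment over all probe sets 11 were held and Abcb4 and Abcd4 were lost. Array weights added Abcc1 and Abcf1. Over fits without 1 array the number of the 37 members that rose ran from 3 to 7, beside 627 to 1371 of all 12366 genes. The number that fell ran from 5 to 8, beside 764 to 2160 of all genes. Calls in either direction ran from 8 to 15 members, beside 11.2% to 28.6% of all genes. Nfe2l2 reversed to -0.51 with the mean of its probe sets and to -1.58 with the probe set of highest SD, neither past the threshold, as its 2 probe sets differ in sign. The labels do not say whether shared replicate numbers pair the animals. Same-numbered arrays correlated between -0.18 and 0.09 in their deviations from group means, which cannot settle whether animals were paired. With the replicate number as a block, 5 members rose and 6 fell: Abcc2, Abcd4 and Abcg5 were lost (adjusted p of 0.0529, 0.0641 and 0.0772) and Abcb1a was gained (0.0364). Among regulators and partners, the block lost the calls of Ahr (0.0571), Fech (0.0695), Kcnj8 (0.0807) and Pltp (0.0770). Under 13 alternatives the Abcg5 with Abcg8 and Abca8a with Abca8b differences kept their sign, while their exact p, already at the smallest value possible, says nothing about stability. Values below 3.60 limit what can be seen of 4 members.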
